A study of Mus musculus with 19 samples.

Results

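Genes of the Z-disc and its load-responsive partners were followed in the quadriceps of AR113Q mice: the alpha-actinins Actn2 and Actn3, the myozenins Myoz1 and Myoz2, myotilin (Myot), the muscle ankyrin repeat proteins Ankrd1 and Ankrd2, the muscle LIM protein Csrp3, and the Xin proteins Xirp1 and Xirp2. They were taken by gene name from the non-control spots of the scanner files, which gave 11 of 39429 probes and 10 of 30214 gene names, with 1 probe per gene except Actn2, which had 2. All mice were male, C57Bl6J congenic and 180 days old, and were either wild type (CTR) or AR113Q, a knock-in model of spinal and bulbar muscular atrophy (SBMA) whose androgen receptor carries an expanded polyglutamine tract. A knock-in is expressed wherever the mouse androgen receptor gene is active, so motor neurons carry it as well as muscle. From 40 days of age the mice received normal chow diet (NCD) or high-fat diet (HFD). The groups held 5 arrays each for CTR-NCD, AR113Q-NCD and AR113Q-HFD, and 4 arrays for CTR-HFD. Whether each sample came from a single mouse is not stated, so the p-values measure the spread between samples. Each array was scanned in 1 colour, and signals are log2 values from which the array's own 75th percentile was subtracted, a level of 0 being that percentile and 1 unit a doubling. The software called between 67.1% and 80.1% of probes on an array well above background, and each of the 11 Z-disc probes on 19 of 19 arrays. The 19 arrays lay on 5 slides, each with arrays of 3 or more groups.

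The Z-disc anchors the thin filaments of neighbouring sarcomeres and is where titin ends. Alpha-actinin dimers cross-link actin there, with Actn3 restricted to fast fibers and Actn2 present in all fibers. Myozenins bind alpha-actinin and tether calcineurin, Myoz1 mainly in fast fibers and Myoz2 mainly in slow fibers and heart. Myotilin bundles actin. Ankrd1 and Ankrd2 bind titin in the I-band and are known to respond to stretch and denervation, Csrp3 is a LIM protein linked to mechanical sensing, and the Xin proteins bind actin at sites of remodelling. Of the lists used below, the slow and fast fiber genes are mostly contractile and calcium-handling isoforms of each fiber type.

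The signals come from 60-base probes, of which 5 are shown because the values of the paralogue pairs and of Csrp3 turn on them. The mm9 span of the Csrp3 (chr7:56086063-56087977), Actn2 (chr13:12364990-12367362), Actn3 (chr19:4861727-4862212) and Myoz2 (chr3:122709486-122716527) probes exceeds 60 bases, so that each crosses an intron, and the Ankrd2 probe lies at chr19:42118566-42118625. The capitals mark the stretch where the Actn2 and Actn3 probes overlap best, with 13 of 19 bases identical. The longest run shared anywhere between these probes is 6 bases and does not lie within that overlap.
Actn2: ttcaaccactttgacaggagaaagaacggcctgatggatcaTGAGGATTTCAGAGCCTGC
Actn3: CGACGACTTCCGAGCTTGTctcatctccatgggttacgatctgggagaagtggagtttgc
Myoz2: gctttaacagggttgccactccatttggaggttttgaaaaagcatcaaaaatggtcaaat
Ankrd2: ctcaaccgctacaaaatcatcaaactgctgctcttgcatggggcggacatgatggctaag
Csrp3: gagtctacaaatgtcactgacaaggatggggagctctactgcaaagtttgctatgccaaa

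RefSeq (GRCm38.p6) windows of 250 bases ending at the start site were found for 6 of the 10 genes, and none for Actn3, Myoz1, Myot and Xirp1. They were searched on both strands for the M-CAT element (CATTCC), the E-box (CANNTG), and the MEF2 and CArG elements. Over 32851 windows of all genes, 12.6% held an M-CAT match, 66.2% an E-box, 2.92% a MEF2 match and 1.47% a CArG match. The windows of Ankrd1 (chr19:36119845-36120094, minus strand), Actn2 (chr13:12340733-12340982, minus strand) and Myoz2 (chr3:123034988-123035237, minus strand) are printed because, averaged over both diets, these genes had the largest positive genotype differences described below, and capitals mark the matches. Ankrd1 had 2 M-CAT matches, at -210 to -205 and -123 to -118 from the start site, and 1 E-box. Myoz2 had a MEF2 match at -33 to -24 and 2 E-boxes, and a further Myoz2 transcript starts within the last bases of its window. Actn2 had 3 E-boxes, among them CACGTG at -84 to -79 and at -48 to -43. No window of these genes held a CArG match. A match is a run of letters and not a measured binding site.
Ankrd1: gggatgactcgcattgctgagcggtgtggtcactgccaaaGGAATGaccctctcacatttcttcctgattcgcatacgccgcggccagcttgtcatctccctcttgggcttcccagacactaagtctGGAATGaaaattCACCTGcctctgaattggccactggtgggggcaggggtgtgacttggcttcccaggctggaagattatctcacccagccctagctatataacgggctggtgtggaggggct
Actn2: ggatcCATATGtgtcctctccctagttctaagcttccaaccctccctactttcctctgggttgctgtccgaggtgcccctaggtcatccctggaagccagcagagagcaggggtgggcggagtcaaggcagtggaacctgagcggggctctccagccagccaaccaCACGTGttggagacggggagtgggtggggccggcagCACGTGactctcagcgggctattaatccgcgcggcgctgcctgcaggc
Myoz2: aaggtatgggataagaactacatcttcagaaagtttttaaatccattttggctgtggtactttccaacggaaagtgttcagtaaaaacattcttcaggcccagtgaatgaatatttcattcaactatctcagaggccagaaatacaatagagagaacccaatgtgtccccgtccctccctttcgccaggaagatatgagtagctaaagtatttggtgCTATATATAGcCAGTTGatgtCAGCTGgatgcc

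To ask how the genotype altered these genes, AR113Q and CTR quadriceps were compared within each diet, in comparisons that share no arrays. On both diets the fast-fiber partners Actn3 and Myoz1 fell while Actn2 rose. Ankrd1 rose on the HFD by 5.73-fold. On the HFD Myot also fell, and on the NCD Xirp2 fell. In limma with Benjamini-Hochberg adjustment over all 32026 probes tested, 5 of 11 probes passed an adjusted p of 0.05 on the NCD, where 17.6% of all probes did. They were 2 higher (8.29% of all probes) and 3 lower (9.28%). Under normexp, another background correction, 0 passed on the NCD, and 3 passed without CTR-NCD replicate 4 or 5 or AR113Q-NCD replicate 2, 3 or 4. On the HFD 5 of 11 passed, against 17.9% of all probes, again 2 higher (8%) and 3 lower (9.93%), and under normexp 3 passed. The genotypes did not overlap on the NCD for 2 probes that were higher (7.31% of all probes) and 2 that were lower (8.29%), and on the HFD for 1 higher (7.41%) and 3 lower (8.3%). The 11 probes were chosen with earlier results of these data known, so these counts are a description. Signals of a bulk muscle cannot tell fewer fibers of a type from less RNA per fiber.

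**Figure D1:**
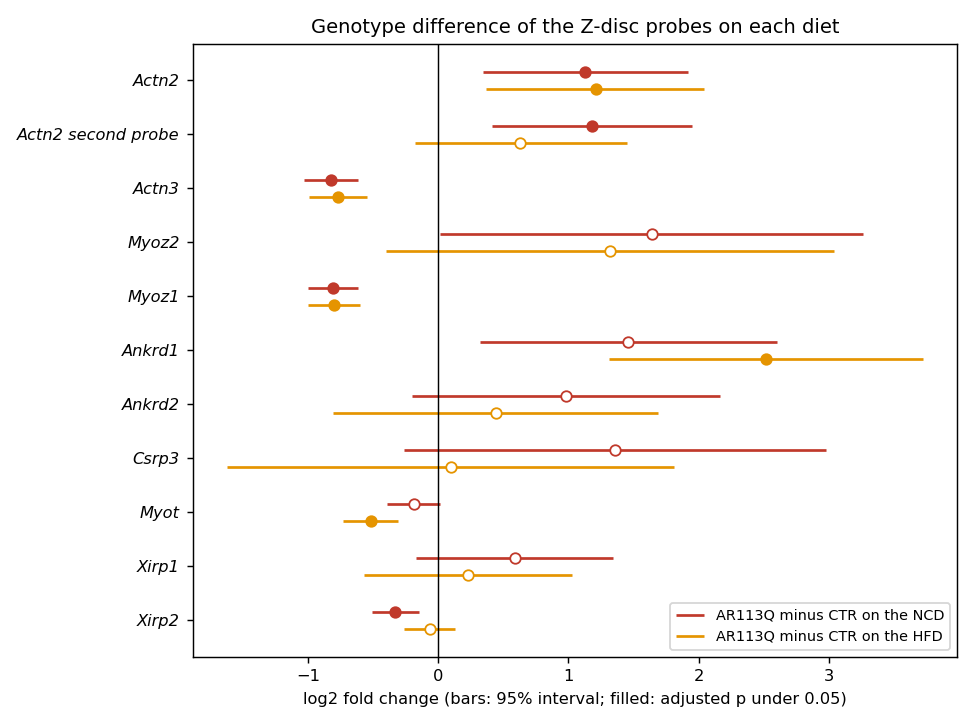
Log2 fold change of AR113Q over CTR quadriceps (x axis) for each of the 11 probes (y axis) on the NCD (red) and the HFD (orange), with 95% intervals from limma; filled points have an adjusted p under 0.05. Actn3 and Myoz1 have short intervals below 0 on both diets, and Ankrd1 on the HFD lies at 2.52 with an interval from 1.31 to 3.72.

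The alpha-actinins moved in opposite directions. The log2 signal of Actn3 was 8.81, 8.60, 8.58, 8.80 and 8.93 in the CTR-NCD arrays and 7.97, 7.95, 7.74, 7.98 and 7.97 in the AR113Q-NCD arrays. On the HFD it was 8.74, 8.87, 8.52 and 8.75 in CTR and 7.76, 8.13, 7.98, 8.13 and 7.74 in AR113Q mice. Every AR113Q array thus lay below every CTR array. Actn3 fell by 1.77-fold on the NCD (log2 fold change -0.82 ± 0.10 SE, limma adjusted p = 2.4e-05) and by 1.71-fold on the HFD (-0.77 ± 0.10 SE, limma adjusted p = 7.1e-05). The exact 2-sided permutation p was 0.00794 on each diet, the smallest these group sizes allow. Within slides the difference ran from -0.96 to -0.65 on 5 of 5 slides on the NCD and from -1.01 to -0.54 on 4 of 4 slides on the HFD.

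Actn2, the isoform of all fibers, read 5.74, 5.62, 5.87, 4.28 and 4.27 in CTR-NCD and 6.30, 6.62, 6.39, 6.04 and 6.08 in AR113Q-NCD arrays. The AR113Q-NCD arrays lay close together above all CTR-NCD arrays, among which replicates 4 and 5 were low. On the HFD Actn2 read 5.04, 4.43, 6.17 and 4.04 in CTR and 6.22, 6.19, 5.89, 5.82 and 6.50 in AR113Q mice, where CTR-HFD replicate 3 lay within the AR113Q range. Actn2 rose by 2.18-fold on the NCD (log2 fold change 1.13 ± 0.37 SE, limma adjusted p = 0.0463) and by 2.31-fold on the HFD (1.21 ± 0.40 SE, limma adjusted p = 0.044, exact permutation p = 0.0317). Both calls sat near the threshold: of 19 single-array omissions, 13 ended the call on each diet. On the NCD these were CTR-NCD replicates 4 and 5, CTR-HFD replicate 1 and every AR113Q array, with the lowest log2 fold change (0.91, limma adjusted p = 0.127) without CTR-NCD replicate 4 or 5. On the HFD they were CTR-HFD replicates 1, 2 and 4 and every AR113Q array, with the lowest (0.91, limma adjusted p = 0.156) without CTR-HFD replicate 4. The calls also ended without a filter on dim probes (limma adjusted p = 0.06 and 0.0514), in fits of the compared arrays alone (limma adjusted p = 0.0558 and 0.0881) and with normexp (limma adjusted p = 0.142 and 0.342). A slide term in the limma model gave 1.13 and 1.32, with adjusted p of 0.024 and 0.0141. Within slides the difference was positive on 5 of 5 slides on the NCD (0.51 to 1.81) and on 3 of 4 on the HFD (-0.28 to 2.46). The second Actn2 probe, designed to a cDNA with no RefSeq entry (chr13:12400548-12400607, mm9), was much dimmer than the first. Its mean log2 signal over all arrays was -3.09, with 42.6% of tested probes dimmer, against 5.66 and 97.3% for the first. This second probe rose on the NCD (1.18 ± 0.36 SE, limma adjusted p = 0.0317). On the HFD its difference was 0.63 ± 0.39 SE (limma adjusted p = 0.308), so the probes of this gene differed in their call there. The NCD call of this probe ended without CTR-NCD replicate 2, 4 or 5 or AR113Q-NCD replicate 2, 3 or 4, with adjusted p up to 0.0908 in limma. With normexp its NCD difference changed sign, to -0.19 (limma adjusted p = 0.68).

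The myozenins showed the same opposition in value, though the test was passed for the fast form alone. Myoz1 read 8.36, 8.23, 8.18, 8.30 and 8.46 in CTR-NCD and 7.55, 7.48, 7.37, 7.55 and 7.55 in AR113Q-NCD arrays. The HFD values were 8.22, 8.28, 7.99 and 8.30 in CTR and 7.25, 7.52, 7.36, 7.66 and 7.21 in AR113Q mice, again with no overlap between genotypes. Myoz1 fell by 1.75-fold on the NCD (log2 fold change -0.81 ± 0.09 SE, limma adjusted p = 1.17e-05) and by 1.74-fold on the HFD (-0.80 ± 0.09 SE, limma adjusted p = 2.55e-05). Within slides its difference ran from -0.92 to -0.75 on the NCD and from -1.09 to -0.63 on the HFD.

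The size of the Actn3 and Myoz1 falls depended on the scaling. Averaged over arrays, 99.8% and 99.6% of the tested probes were dimmer than Actn3 and Myoz1, and the 100 brightest probes had a median log2 fold change of -0.34 on the NCD and -0.46 on the HFD, against -0.05 and -0.07 for all probes tested. With quantile normalization, where the median of these bright probes was 0.01 and -0.01, Actn3 still fell, by 0.46 and 0.34 on the log2 scale, and Myoz1 by 0.51 and 0.47, with limma adjusted p from 0.000913 to 0.0333. With normexp background correction, which moved the median of all probes on the NCD to -0.55, both differences on the NCD were -0.50 with an adjusted p of 0.145 in limma.

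Myoz2, the slow and cardiac form, read 3.08, 3.46, 3.32, 0.50 and 1.18 in CTR-NCD and 3.71, 4.35, 4.37, 3.73 and 3.56 in AR113Q-NCD arrays. On the HFD it read 1.26, 0.69, 4.12 and -0.93 in CTR and 3.02, 2.35, 1.36, 2.52 and 3.77 in AR113Q mice. The AR113Q-NCD arrays lay above all CTR-NCD arrays, while on the HFD the genotypes overlapped through CTR-HFD replicate 3. The log2 difference was 1.64 on the NCD (95% interval 0.01 to 3.26, limma adjusted p = 0.172, exact permutation p = 0.00794) and 1.32 on the HFD (-0.40 to 3.04, limma adjusted p = 0.316, exact permutation p = 0.23). Over the 19 single-array omissions the HFD difference ran from 0.58 to 2.26, with limma adjusted p from 0.0298 to 0.682. It passed only without CTR-HFD replicate 3 (2.26, limma adjusted p = 0.0298). The NCD difference ran from 1.18 to 1.92 and passed under none of them (limma adjusted p from 0.0691 to 0.383).

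**Figure D2:**
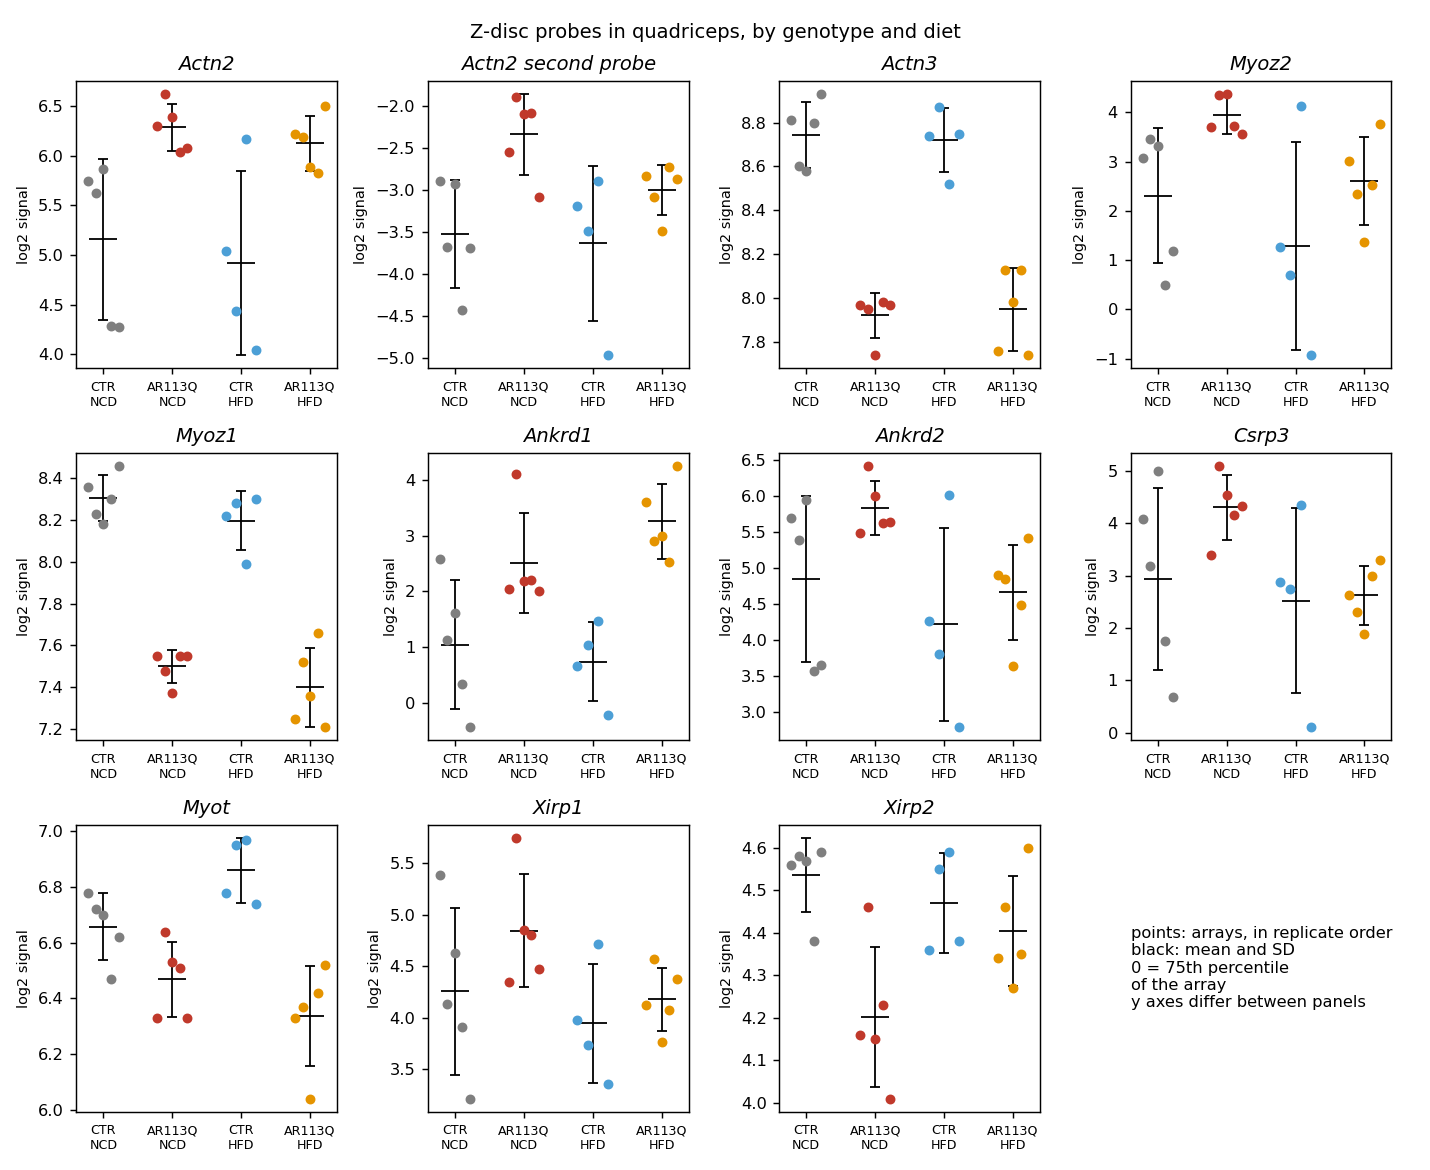
Log2 signal relative to the array's 75th percentile (y axis, scaled separately in each panel) of the 11 probes in each array, by group (x axis), with the group mean and SD in black. Actn3 and Myoz1 separate the genotypes on both diets, and in CTR arrays Actn2, Myoz2, Ankrd2 and Csrp3 are spread widely, for Myoz2 from -0.93 to 4.12 on the HFD.

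Ankrd1, a titin-bound ankyrin repeat protein induced by stretch, had the largest genotype difference on the HFD among these probes. It read 2.58, 1.13, 1.62, 0.33 and -0.43 in CTR-NCD and 2.04, 4.11, 2.18, 2.20 and 2.0 in AR113Q-NCD arrays. On the HFD it read 0.66, 1.03, 1.46 and -0.21 in CTR and 3.60, 2.91, 2.99, 2.52 and 4.25 in AR113Q mice. On the NCD 1 CTR array lay within the AR113Q range, and on the HFD the highest CTR array, at 1.46, lay below the lowest AR113Q array, at 2.52. The rise on the HFD was 2.52 ± 0.57 SE on the log2 scale (5.73-fold, limma adjusted p = 0.00495, exact permutation p = 0.00794), and within slides it ran from 1.53 to 4.47 on 4 of 4 slides. On the NCD the difference was 1.46 ± 0.54 SE (limma adjusted p = 0.0739, exact permutation p = 0.0556), positive on 4 of 5 slides. Over the 19 single-array omissions this NCD difference ran from 1.06 to 1.84, with limma adjusted p from 0.0227 to 0.196. It passed only without CTR-NCD replicate 1 (1.84, limma adjusted p = 0.0227). AR113Q-NCD replicate 2, at 4.11, stood well above the next array of its group, at 2.20.

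Its relative Ankrd2, found mainly in slow fibers, read 5.70, 5.39, 5.94, 3.57 and 3.66 in CTR-NCD and 5.49, 6.42, 6.0, 5.63 and 5.64 in AR113Q-NCD arrays. In HFD-fed mice it read 4.27, 3.81, 6.01 and 2.80 in CTR and 4.91, 4.85, 3.65, 4.49 and 5.42 in AR113Q mice. The genotypes overlapped on both diets, and CTR-NCD replicates 4 and 5 were again low and CTR-HFD replicate 3 high. The log2 difference was 0.98 on the NCD (95% interval -0.20 to 2.16, limma adjusted p = 0.273) and 0.44 on the HFD (-0.81 to 1.69, limma adjusted p = 0.691), and without CTR-HFD replicate 4 the latter was -0.04.

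Csrp3, which links the Z-disc to mechanical signalling, varied more. It read 4.08, 3.19, 5.01, 1.76 and 0.68 in CTR-NCD and 3.39, 5.10, 4.54, 4.16 and 4.34 in AR113Q-NCD arrays. The HFD arrays read 2.88, 2.75, 4.36 and 0.11 in CTR and 2.64, 2.30, 1.88, 2.99 and 3.31 in AR113Q mice. The differences were 1.36 (95% interval -0.26 to 2.98, limma adjusted p = 0.268) on the NCD and 0.10 (-1.62 to 1.81, limma adjusted p = 0.957) on the HFD. The HFD value was -0.71 without CTR-HFD replicate 4 and -0.07 without AR113Q-HFD replicate 5.

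Myot, an actin-bundling protein of the Z-disc, read 6.78, 6.95, 6.97 and 6.74 in CTR-HFD and 6.33, 6.37, 6.04, 6.42 and 6.52 in AR113Q-HFD arrays, which did not overlap, and it fell by 1.44-fold (log2 fold change -0.52 ± 0.10 SE, limma adjusted p = 0.00131). With quantile normalization this fall was 0.31 on the log2 scale, with an adjusted p of 0.0313 in limma, and with normexp the difference was -0.58 with an adjusted p of 0.262 in limma. On the NCD Myot ranged from 6.47 to 6.78 in CTR and from 6.33 to 6.64 in AR113Q arrays, a difference of -0.19 ± 0.09 SE (limma adjusted p = 0.194).

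Xirp2, an actin-binding Xin protein, read 4.56, 4.58, 4.57, 4.38 and 4.59 in CTR-NCD and 4.16, 4.46, 4.15, 4.23 and 4.01 in AR113Q-NCD arrays, which overlapped through 1 array of each genotype. It fell by 1.26-fold on the NCD (log2 fold change -0.33 ± 0.09 SE, limma adjusted p = 0.011), and this call was not kept with quantile normalization (-0.25, limma adjusted p = 0.0508), median centring (-0.31, limma adjusted p = 0.0876) or normexp (-0.05, limma adjusted p = 0.836). HFD arrays ranged from 4.36 to 4.59 in CTR and from 4.27 to 4.60 in AR113Q arrays, with a difference of -0.06 ± 0.09 SE. Xirp1 ranged on the NCD from 3.21 to 5.39 in CTR and from 4.35 to 5.75 in AR113Q arrays. On the HFD these ranges were 3.35 to 4.72 and 3.76 to 4.57, so the genotypes overlapped on both diets. Its differences of 0.59 on the NCD (95% interval -0.17 to 1.34) and 0.23 on the HFD (-0.57 to 1.03) did not pass the test (limma adjusted p = 0.313 and 0.754).

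Averaged over both diets, which uses the same arrays again, 7 of 11 probes passed the test, where 29.3% of all probes passed. They were 3 higher (13.3% of all probes) and 4 lower (16%). Ankrd1 rose by 3.97-fold (log2 fold change 1.99 ± 0.39 SE, limma adjusted p = 0.00087), and Actn2 rose by 2.24-fold (1.17 ± 0.27 SE, limma adjusted p = 0.00335) with its second probe (0.91 ± 0.26 SE, limma adjusted p = 0.0151). Actn3 and Myoz1 each fell by 1.74-fold, Myot by 1.28-fold and Xirp2 by 1.15-fold. Ankrd1, Actn2, Actn3 and Myoz1 kept their calls under each of 30 alternatives. Myoz2 was 1.48 higher (95% interval 0.29 to 2.66, limma adjusted p = 0.0574) and passed under 10 of 30 alternatives, quantile normalization and the slide block among them. With quantile normalization 4 probes were higher and 3 lower, since Myoz2 passed and Xirp2 did not. The Xirp2 call was also lost with median centring (limma adjusted p = 0.129), the authors' values (limma adjusted p = 0.276) and normexp (limma adjusted p = 0.7). Under normexp the second Actn2 probe was at 0.08 (limma adjusted p = 0.817) and Myot at -0.24 (limma adjusted p = 0.363), and 4 probes passed. Without CTR-HFD replicate 3, Myoz2 was 1.95 higher (limma adjusted p = 0.00352) and Ankrd2 1.01 higher (limma adjusted p = 0.0451). Without CTR-NCD replicate 2 or 3 or AR113Q-HFD replicate 3, Myoz2 also passed, at 1.60 to 1.63 with limma adjusted p from 0.0434 to 0.0488. The other single-array omissions brought no call for Myoz2 or Ankrd2. Over all 19 omissions Myoz2 ran from 1.11 to 1.95 (limma adjusted p up to 0.13) and Ankrd2 from 0.47 to 1.01 (up to 0.407).

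Differences between 2 probes of the same array are not moved by a constant shift of that array, and their zero has no meaning. For Actn2 only the first probe was used. The genotype difference of its second probe was 1.18 on the NCD and 0.63 on the HFD, against 1.13 and 1.21 for the first. Actn2 minus Actn3 averaged -3.58 ± 0.93 (SD, n = 5) in CTR-NCD and -1.63 ± 0.29 (SD, n = 5) in AR113Q-NCD, a shift of 1.95. On the HFD it averaged -3.80 ± 1.06 (SD, n = 4) in CTR and -1.82 ± 0.43 (SD, n = 5) in AR113Q, a shift of 1.98. The genotypes did not overlap on either diet, with the nearest HFD arrays at -2.35 and -2.31. Myoz2 minus Myoz1 shifted by 2.44 on the NCD, where the genotypes did not overlap, and by 2.11 on the HFD, where they did. Ankrd1 minus Ankrd2 shifted by 0.47 on the NCD and by 2.08 on the HFD, and in AR113Q-HFD arrays it ran from -1.97 to -0.66, above the highest value of the other groups, -2.32. Quantile normalization, which is not a constant shift, gave 1.69 and 1.72 for the Actn2 and Actn3 pair, 2.20 and 1.81 for the myozenins, and 0.41 and 1.99 for Ankrd1 and Ankrd2. These shifts are a description and were not tested.

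**Figure D3:**
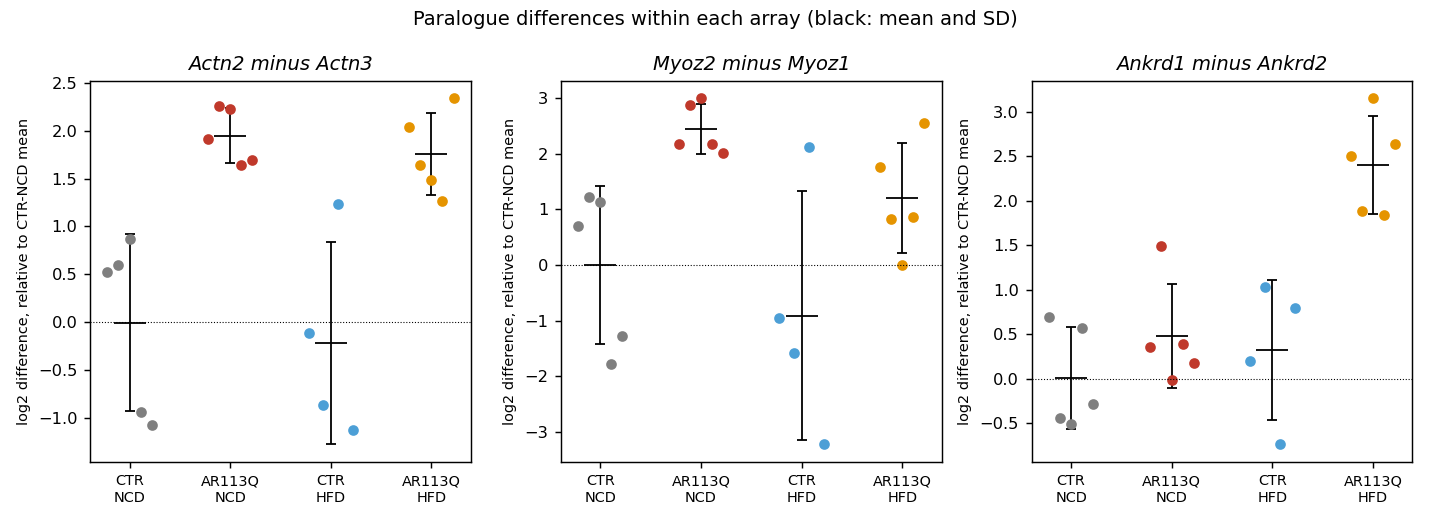
Difference in log2 signal between 2 paralogue probes of the same array, relative to the CTR-NCD mean (y axis), by group (x axis), with mean and SD in black. With the first Actn2 probe, Actn2 minus Actn3 is about 2 units higher in AR113Q on both diets, with shifts of 1.95 and 1.98. Ankrd1 minus Ankrd2 is highest in the AR113Q-HFD arrays.

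The diet comparisons asked whether the HFD altered these genes within a genotype. None of the 11 probes passed the test. In AR113Q mice, whose NCD and HFD arrays also enter the genotype comparisons, 0 of 11 probes passed in limma against 0.025% of all probes. Of the 11, 2 had an unadjusted p under 0.05 in limma, as did 2155 of all 32026 probes tested. The 2 of the 11 were Csrp3, lower on the HFD, and Xirp2, higher by 0.20 (95% interval 0.02 to 0.38, limma adjusted p = 0.69). Csrp3 was at 1.88 to 3.31 on the HFD and 3.39 to 5.10 on the NCD (difference -1.68, 95% interval -3.30 to -0.07, limma adjusted p = 0.729, exact permutation p = 0.00794), and Ankrd2 was at 3.65 to 5.42 against 5.49 to 6.42 (-1.17, interval -2.35 to 0.01, limma adjusted p = 0.743, exact permutation p = 0.00794). The groups did not overlap for these 2 probes, as for 1.12% of all probes in that direction. Myoz2 differed by -1.34 (interval -2.96 to 0.28) and Xirp1 by -0.67 (-1.42 to 0.09). Ankrd1 differed the other way, by 0.75 (interval -0.39 to 1.89), and Actn3 by 0.03 (-0.18 to 0.23). The slow fiber genes listed below were also lower on the HFD in AR113Q mice. This held for 12 of 12, with a median log2 fold change of -2.00, and 0 passed the test. In CTR mice the HFD difference was negative for 12 of 12 as well, with a median of -0.79, and 0 passed.

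In CTR mice 0 of 11 probes passed in limma, as did 0% of all probes, and none of the 11 had an unadjusted p under 0.05, against 2775 of all probes. The differences ran from -1.02 for Myoz2 (95% interval -2.75 to 0.70) to 0.20 for Myot (-0.01 to 0.41). The genotype by diet interaction, which tests whether the genotype difference changed with diet, passed for 0 of 11 probes and 0% of all probes in limma. Unadjusted p-values under 0.05 were found for 1489 of all probes and for Myot (-0.33, 95% interval -0.62 to -0.05, limma unadjusted p = 0.026) and Xirp2 (0.27, 0.01 to 0.53, limma unadjusted p = 0.0445), both with an adjusted p of 0.9997. For Ankrd1 the interaction was 1.06 (interval -0.60 to 2.72), so the larger HFD difference was not shown to differ from that on the NCD.

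Variation within groups split the Z-disc genes into those that kept a tight level and those that did not. The within-group SD was 0.13 to 0.15 log2 units for Actn3, Myoz1, Myot and Xirp2, under the median of 0.24 over all probes tested. It was 0.59 for Xirp1, 0.62 for Actn2, 0.89 for Ankrd1, 0.93 for Ankrd2, 1.27 for Csrp3 and 1.28 for Myoz2. For Csrp3 and Myoz2, 98.6% and 98.7% of all probes tested had a smaller SD. These probes varied together over the 19 arrays once group means were removed, with Pearson r of 0.97 between Ankrd2 and Myoz2, 0.96 between Ankrd2 and Actn2, and 0.91 between Ankrd2 and Csrp3. Actn3 and Myoz1 formed a pair (0.93), as did Ankrd1 and Xirp1 (0.87) and Myot and Xirp2 (0.82). With slide effects also removed these were 0.96, 0.97, 0.91, 0.91, 0.86 and 0.80 in the same order. The points share arrays and scaling, so the values are a description.

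**Figure D4:**
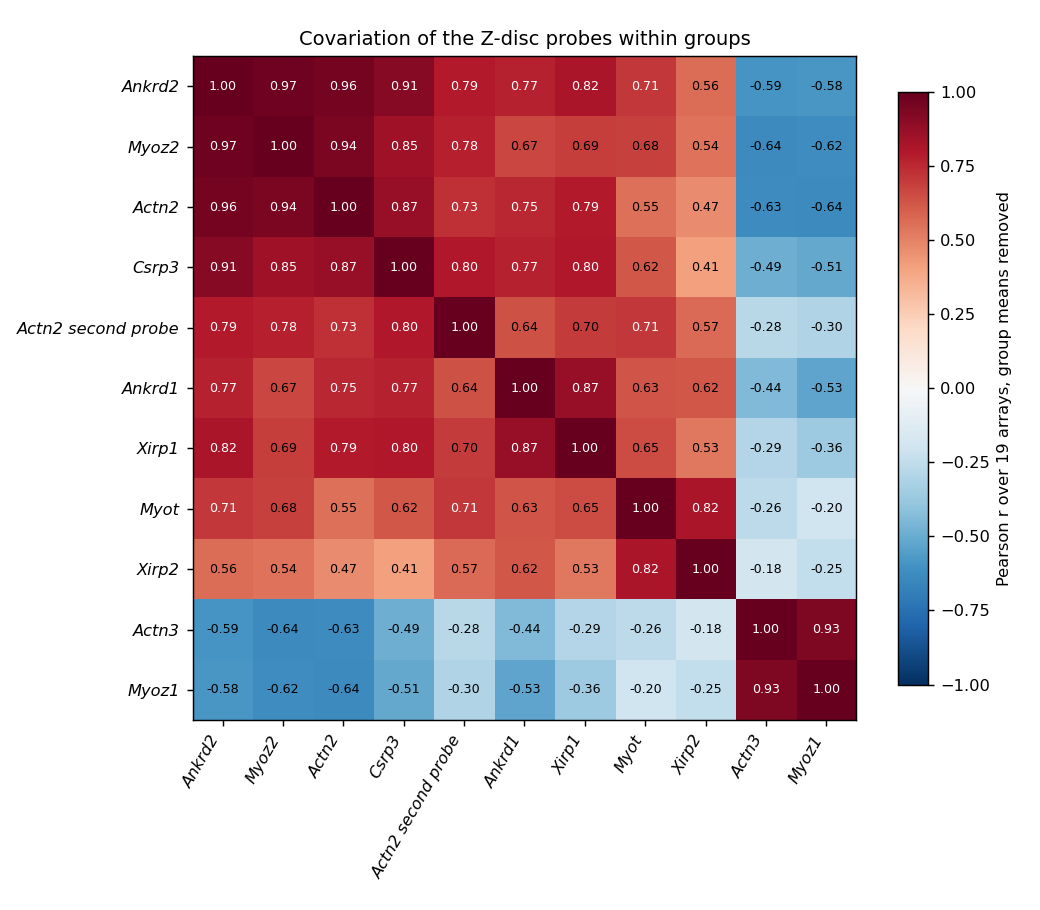
Pearson r between the 11 probes (both axes) over 19 arrays after removal of group means, coloured from -1 (blue) to 1 (red). Ankrd2, Myoz2, Actn2 and Csrp3 are bound by r of 0.85 to 0.97, and Actn3 and Myoz1 run against them with r from -0.64 to -0.49.

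The slow fiber genes moved beside this group. The list of 12 (Tnni1, Tnnc1, Tnnt1, Myh7, Myh7b, Myl2, Myl3, Tpm3, Atp2a2, Casq2, Mb and Fhl2) had a mean log2 signal on the NCD of 0.51 to 3.58 in CTR and 3.55 to 4.48 in AR113Q arrays, and on the HFD of -0.61 to 3.94 and 0.49 to 3.45. CTR-NCD replicates 4 and 5, low for Ankrd2, Actn2, Csrp3 and Myoz2, had list means of 0.515 and 1.44, and CTR-HFD replicate 3, high for them, had 3.94. With group means removed, r with the list mean was 0.93 for Myoz2, 0.84 for Ankrd2, 0.80 for Actn2, 0.70 for Csrp3, 0.62 for Myot, 0.48 for Ankrd1, 0.47 for Xirp1 and 0.42 for Xirp2 over 19 arrays, and -0.70 for Actn3 and -0.59 for Myoz1. Spearman's rho was, in the same order, 0.95, 0.83, 0.77, 0.76, 0.65, 0.58, 0.55, 0.41, -0.63 and -0.61. Without the 2 arrays farthest from the median list mean r was 0.88, 0.72, 0.65, 0.55, 0.59, 0.38, 0.28, 0.31, -0.70 and -0.44. The part of the slow fiber content of a sample in the differences above was not tested. The genotype difference was positive for 12 of the 12 list genes on the NCD and for 10 of 12 on the HFD. Its median was 2.01 and 0.96, against -0.06 and -0.08 for all genes tested. On the NCD 2 of the 12 list genes passed the test, the calsequestrin Casq2 (2.01, limma adjusted p = 0.00414) and the LIM protein Fhl2 (1.43, limma adjusted p = 0.0462). Under normexp Fhl2 was at 0.46 (limma adjusted p = 0.297). On the HFD Casq2 alone passed (2.0, limma adjusted p = 0.00611). Of all 24741 genes tested, 17.4% passed in either direction on the NCD and 17.9% on the HFD.

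**Figure D5:**
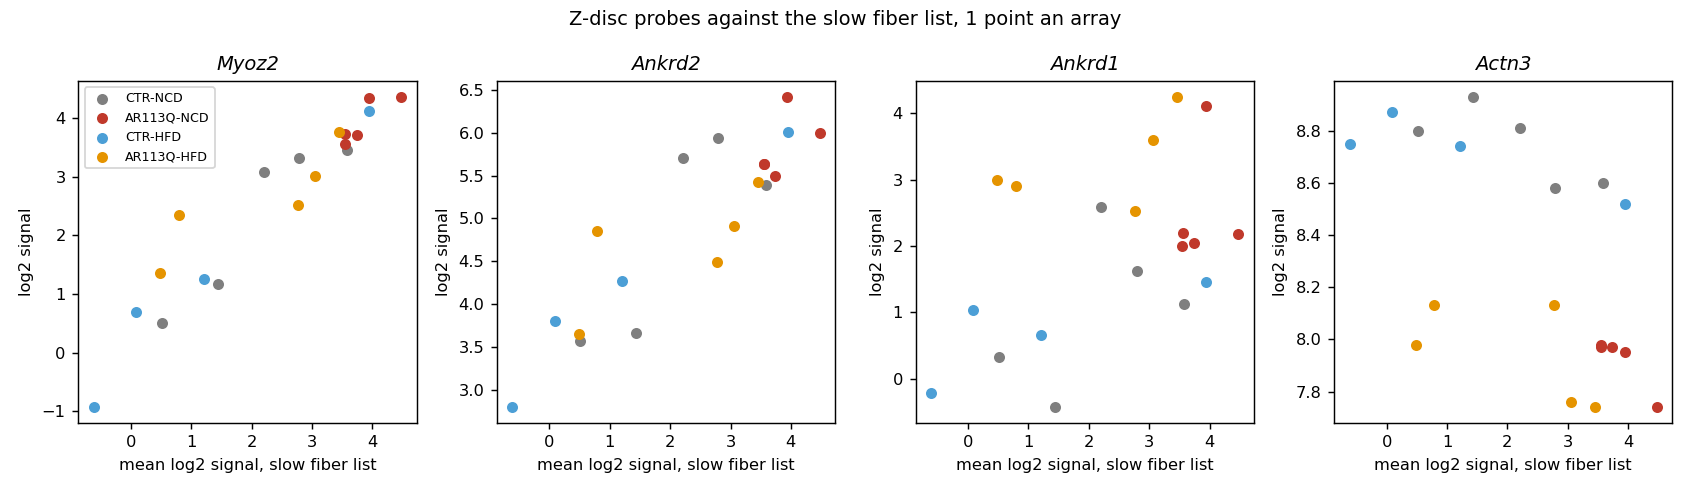
Log2 signal of Myoz2, Ankrd2, Ankrd1 and Actn3 (y axes) against the mean log2 signal of the 12 slow fiber genes (x axis) in each of 19 arrays, coloured by group. Myoz2 and Ankrd2 are higher where the list mean is higher (r 0.93 and 0.84 after removal of group means), while the AR113Q-HFD arrays lie high for Ankrd1 at list means from 0.49 to 3.45 and the genotypes stay apart for Actn3.

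Over the 19 arrays with group means removed, the genes most like each member were found among all tested genes. Ankrd2 was followed by the LIM gene Fhl1 (r = 0.978) and Tiam2 (0.971). Myoz2 was followed by Esrrb (0.978) and Zdhhc23 (0.976), and a probe with no gene name was the closest to Myoz2 (r = 0.99) and the second closest to Ankrd2 (0.971). Actn2 was followed by Inpp4b (0.973), the small heat shock gene Hspb7 (0.973) and Ankrd2 (0.964). Csrp3 was followed by 2310075C17Rik (0.959), Lmcd1 (0.945) and Fxyd6 (0.941). Ankrd1 and Xirp1 shared the cDNA AK031940 (0.895 and 0.939), with Enah, an actin regulator, also near Ankrd1 (0.893). Actn3 and Myoz1 were each other's closest gene (0.934), then Exosc1 (0.901) and Gpt2 (0.894) for Actn3 and Tmem233 (0.917) and Fam131a (0.907) for Myoz1. Myot was followed by Pfkfb2 (0.902), Coq10a (0.897) and Oxct1 (0.883), and Xirp2 by Polb (0.867) and Mcee (0.862).

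Other genes of the Z-disc and of titin's partners showed both directions. Of 33 tested, on the NCD 4 rose, 12 fell and 17 did not pass, with a median log2 fold change of -0.14 against -0.06 for all 24741 genes. On the HFD 5 rose, 7 fell and 21 did not pass, with a median of -0.06 against -0.08. Of all these 24741 genes, 17.4% passed in either direction on the NCD and 17.9% on the HFD. The split turned with the scaling: with quantile normalization 7 rose and 4 fell on the NCD, and 7 rose and 2 fell on the HFD, and with normexp 1 rose on each diet and 0 and 1 fell. The F-box gene Fbxl22, whose product binds alpha-actinin, rose by 1.57 on the log2 scale on the NCD (limma adjusted p = 5.82e-06) and by 1.78 on the HFD (limma adjusted p = 3.63e-06). Bag3, a chaperone partner of the Z-disc, rose by 0.61 and 0.57 (limma adjusted p = 0.00849 and 0.0178). The third myozenin, Myoz3, which like Myoz1 is a fast-fiber form, fell by 0.65 and 0.75 (limma adjusted p = 0.00129 and 0.000666). The PDZ-LIM gene Ldb3, also called Cypher, fell by 0.56 and 0.47 (limma adjusted p = 0.000325 and 0.00204), and the capping protein gene Capza2 fell by 0.50 on each diet (limma adjusted p = 0.0184 and 0.0267). With quantile normalization the HFD calls of Ldb3 (limma adjusted p = 0.0812) and Capza2 (limma adjusted p = 0.0583) were lost and the other calls of these 5 genes held. With normexp only Fbxl22 on both diets and Myoz3 on the HFD kept their calls.

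Lists for the fiber type and innervation of the muscle stood beside these results. Their counts compare with 17.4% of all genes that passed in either direction on the NCD and 17.9% on the HFD. Of 12 fast fiber genes, a list that includes Actn3, 10 fell on the NCD and 11 on the HFD, among them Casq1 by 1.26 and 1.03 on the log2 scale (limma adjusted p = 7.34e-06 and 7.45e-05). The count depended on the scaling: with quantile normalization 5 fell on the NCD and 4 on the HFD, and with normexp 1 and 3, Casq1 being called under each. Of 9 denervation genes 5 rose on the NCD and 6 on the HFD, among them Chrna1, a subunit of the acetylcholine receptor, by 1.51 and 1.99 (limma adjusted p = 6.17e-06 and 1.2e-06), and 3 rose on each diet under normexp. None of 8 regenerating fiber genes passed on the NCD and 1 fell on the HFD, Myh8 (-0.37, limma adjusted p = 0.00966). The mean CTR-NCD level of Myh8 was 9.26, against -3.38 to -0.20 for the other genes tested from this list. The 100 brightest probes had a median log2 fold change of -0.46 on the HFD, and what the Myh8 fall reflects was not tested. The skeletal muscle markers Acta1, Ckm, Mylpf, Tnnt3, Myh4 and Mb had list means of 7.11 to 8.0 on all arrays, and 5 of 6 fell on each diet, against 2 of 6 with quantile normalization and 0 and 1 of 6 with normexp. Of these markers, Mylpf, Tnnt3 and Myh4 are also in the fast fiber list and Mb is in the slow fiber list, so the counts share genes. Of 38 tested genes from 8 lists of other cells (adipocytes, Schwann cells, macrophages, endothelium, fibroblasts, cardiac and smooth muscle, red blood cells), 1 rose on the NCD, the glial gene S100b (0.58, limma adjusted p = 0.00521, and 0.38 with limma adjusted p = 0.133 under normexp), and none passed on the HFD. Ankrd1, Csrp3 and Myoz2 are also heart genes, and 0 of 5 cardiac markers passed in limma on either diet. The cardiac list mean ran on the NCD from -2.70 to -2.30 in CTR and from -2.48 to -2.19 in AR113Q arrays. Its 5 genes differed on the NCD by 1.07 (Myh6), 0.19 (Myl4), 0.14 (Tnni3), -0.13 (Nppa) and -0.54 (Myl7), with limma adjusted p from 0.196 to 0.793. The mean level of Myh6 was 0.08 in CTR-NCD and 1.15 in AR113Q-NCD arrays, while the atrial gene Nppa was at -3.86 and -3.99 and Myl7, well above background on 15 of 19 arrays, at -5.65 and -6.19.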

How the data were processed

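Quadriceps RNA from 19 samples was hybridized to Agilent 4x44K arrays. The authors scanned the arrays and extracted the deposited spot intensity values with Feature Extraction 10.7.3.1, which per the file headers subtracted local background and detrended each array, without normalization between arrays. The authors also deposited a table of log2 values (25944 rows, all matched to probes, r with scanner values 0.9794 to 0.9821), used as an alternative; the method behind it is not given in the sources used here. Its columns of single arrays were all mapped. Here log2 intensities without outlier spots were averaged per probe and each array's 75th percentile was subtracted. A probe was tested if it stood well above background on 4 or more of the 19 arrays, 32026 in all, with limma 3.58.1 in R 4.3.3 and Benjamini-Hochberg adjustment. The 4 groups, taken from the sample labels, were fitted together. Single probes were also tested with exact 2-sided permutation tests. The number of arrays limits the precision. The members and gene lists were chosen with earlier results of these data known. All members are named; of the other Z-disc list the 5 called genes with the largest NCD change, of other lists up to 3 genes, by the brightest probe of a gene, and for likeness genes from the 3 with the highest r, of which some are not reported here. Alternatives were quantile normalization, median centring, normexp (offset 50), the authors' values, other filters on dim probes, outlier spots kept, slide and replicate blocks, array weights, an intensity trend with a robust prior, fits of the compared groups alone, a fold threshold (at least 1.5 or at most 0.6), 1 probe a gene and each array left out. Promoter windows are from RefSeq. Figures were drawn with matplotlib 3.10.9.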

Additional observations from a re-analysis of the deposited data

Results flagged for a closer look

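In 3 of the 44 sets of a probe and a group, the highest or lowest array stood apart from the others by Dixon's criterion, which chance alone meets in about 1 of 20 sets. Ankrd1 in AR113Q-NCD was highest in replicate 2, at 4.11, with the next array at 2.20. Actn3 in AR113Q-NCD was lowest in replicate 3, at 7.74, with the next at 7.95. Xirp2 in CTR-NCD was lowest in replicate 4, at 4.38, with the next at 4.56.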

How the results depend on the processing

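Of the counts of called probes under the alternatives, 188 stayed within 1.5 times the value given and 8 did not. The counts of the diet comparisons and the interaction, given above as 0, stayed at 0 under each alternative and are among the 188. The 8 were all counts of the genotype comparisons. Called probes numbered 0 on the NCD, 3 on the HFD and 4 over both diets under normexp, and between 3 and 6 on the NCD with 1 array left out. Differences changed sign under normexp on the NCD for the second Actn2 probe (-0.19) and Myot (0.10). On the HFD Xirp2 did so with quantile normalization (0.07) and the authors' values (0.06). For the diet in CTR mice, Actn3 was 0.01 with median centring, 0.00 with the slide as a block and 0.03 with array weights, and normexp gave 0.13 for Actn2, 0.39 for Actn3, 0.31 for Myoz1, 0.03 for Xirp1 and 0.31 for Xirp2. For the interaction normexp gave -0.23 for Actn2, 0.54 for its second probe, -0.29 for Actn3, -0.33 for Myoz1 and -0.04 for Xirp2, the slide block -0.01 for Myoz1, and array weights 0.08 for Myoz2. Apart from the shift of all probes under normexp given above, the cause was not tested.

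With 1 array left out, the sign changed on the HFD for Ankrd2 (-0.04 to 1.03) and Csrp3 (-0.71 to 0.71), and for the diet in AR113Q mice for Actn3 (-0.02 to 0.08). For the diet in CTR mice it changed for Ankrd1 (-0.68 to 0.07), Csrp3 (-1.03 to 0.39), Actn2 (-0.66 to 0.05), its second probe (-0.35 to 0.33) and Actn3 (-0.07 to 0.04). For the interaction it changed for Ankrd2 (-1.02 to 0.05), Actn2 (-0.21 to 0.50), Actn3 (-0.02 to 0.10), Myoz1 (-0.06 to 0.06) and Myoz2 (-1.06 to 0.63). None of these differences had passed the test. Array number limits what can be seen for Myoz2 and Csrp3, whose intervals span over 3 units.

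Samples with the same replicate number lay on the same slide in 24 pairs, whose deviations from the group means correlated at -0.205 to 0.537 (median 0.289, against -0.0881 for pairs sharing neither). In 3 pairs with the same number on different slides r was -0.17 to 0.00861 (median -0.0999). In 3 pairs with different numbers on the same slide it was 0.179 to 0.325 (median 0.24). Replicate number and slide thus mostly coincided, and where they did not, the higher r went with the slide. All pairs in which they did not coincide include CTR-HFD replicate 4, so this rests on that array. Since not every pair exceeded 0.1, the numbers were not taken as pairs. List counts, list genes and paralogue shifts under other scalings were computed after seeing the data. A replicate block gave 5, 5 and 8 called probes on the NCD, the HFD and over both diets, the last through Myoz2 (1.49, limma adjusted p = 0.0498), and 14 of 19 arrays correlated best with one of their own number.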
